A study of Homo sapiens with 6 samples.

Results

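The genes described here are 10 genes of the TGF-β superfamily, taken by symbol from the 19470 genes of the deposited count table. They are 9 ligand genes, namely GDF15, INHBA, INHBB, INHBE, TGFB1, TGFB2, TGFB3, BMP2 and BMP4, together with FST, which encodes follistatin and is an antagonist of activins rather than a ligand. All 10 were found in the table and all passed the filter on low counts, among 13066 genes tested. RNA was sequenced from HCCC9810 cells, an established wild type human cholangiocarcinoma (CCA) cell line, after 24 h with 20 μM isolinderalactone (ILL), a plant sesquiterpenoid lactone, or 24 h with the vehicle (DMSO). There were 3 libraries per group, with total counts between 34282764 and 37758569. The labels do not say whether the replicates came from separate cultures, so p-values measure only the spread between these libraries. As bulk libraries of a single cell line, they do not separate a change in the number of cells that express a gene from a change in RNA per cell.

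TGF-β superfamily ligands are secreted dimers that are cut from a precursor protein and bind a complex of type I and type II receptor kinases. TGF-βs and activins act mainly through SMAD2 and SMAD3, and bone morphogenetic proteins (BMPs) through SMAD1, SMAD5 and SMAD9, each together with SMAD4. The genes named INHB encode the β subunits of activins and inhibins. In the biliary tree these ligands are known for roles in fibrosis, in epithelial growth arrest and in differentiation. GDF15 is a distant member that signals through GFRAL and RET in the hindbrain and is widely used as a marker of cell stress.

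The cells carried the keratins of biliary epithelium in both groups. Summed over 8 biliary epithelial markers, of which 7 were tested, the level was 9050 to 9292 CPM (counts scaled to the TMM-adjusted library size) in control libraries and 9531 to 10120 CPM with ILL. In libraries of a single cell line, markers of other cell types do not show whether such cells were present. Their sums were far below that of the biliary markers. The 6 fibroblast markers summed to 2.40 to 3.44 CPM in controls and 1.34 to 3.69 CPM with ILL, the 4 endothelial markers to 1.03 to 1.65 CPM and 1.74 to 1.91 CPM, and the 6 hepatocyte markers to 29.1 to 33.5 CPM and 28.7 to 47.1 CPM. The 6 leukocyte markers summed to 36.5 to 41.6 CPM in controls and 111.6 to 117.4 CPM with ILL, nearly all of it from CD68, a lysosomal gene, while CD3E and PTPRC were near 0. SERPINA1 made up most of the hepatocyte sum in every library, and the highest sum was that of ILL replicate 3. There ALB had 541 counts, against 214 and 240 in ILL replicates 1 and 2. The part of such markers in the results was not tested.

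Of the 10 genes, 3 were differentially expressed genes (DEGs), defined by an adjusted p-value under 0.05 in edgeR's quasi-likelihood test and a fold change above 2 or under 0.5. GDF15, INHBE and BMP2 were all higher with ILL, and 0 of the 10 were DEGs lower with ILL. Among all tested genes, DEGs higher with ILL made up 12.5% and DEGs lower 11.4%, or 23.9% in all. By the adjusted p-value alone, 5 rose (GDF15, INHBE, BMP2, INHBA and TGFB3), 2 fell (BMP4 and FST) and 3 did not pass (TGFB1, TGFB2 and INHBB), against 36.2% higher and 36.9% lower among all tested genes, or 73.1% in all. The 7 of 10 that passed by p-value alone are near that background. The ILL and control libraries did not overlap in 7 of the 10 genes, against 75.4% of all tested genes. The median log2 fold change of the 10 genes was 0.35, beside -0.0012 for all tested genes.

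GDF15 made the largest change of the 10. It lies on chromosome 19 of GRCh38 from 18374731 to 18389176 on the plus strand. The start of the gene in RefSeq is shown here because GDF15 is the ligand that changed most, beside that of TGFB1, the most abundant ligand transcript in control cells, and that of FST, the antagonist. Each sequence holds the 250 bases before the RefSeq start site of GRCh38.p14, 5′ to 3′ on the strand of the gene, from chr19:18385908-18386157 (plus strand) for GDF15, whose RefSeq start lies inside the span that GENCODE gives the gene, chr19:41353923-41354172 (minus strand) for TGFB1 and chr5:53480379-53480628 (plus strand) for FST. Capitals mark matches on either strand to the TATA box letters TATAAA, the GC box letters GGGCGG or the CCAAT box. They also mark the AP-1-like letters TGANTCA, where N is any base, and the C/EBP-ATF letters TGATGNAA. A match is a description of the letters only.
GDF15: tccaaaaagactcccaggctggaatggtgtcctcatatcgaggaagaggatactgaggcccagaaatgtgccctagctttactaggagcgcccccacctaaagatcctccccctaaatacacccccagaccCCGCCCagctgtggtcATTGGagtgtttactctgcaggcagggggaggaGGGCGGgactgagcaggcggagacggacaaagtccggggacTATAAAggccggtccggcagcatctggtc
TGFB1: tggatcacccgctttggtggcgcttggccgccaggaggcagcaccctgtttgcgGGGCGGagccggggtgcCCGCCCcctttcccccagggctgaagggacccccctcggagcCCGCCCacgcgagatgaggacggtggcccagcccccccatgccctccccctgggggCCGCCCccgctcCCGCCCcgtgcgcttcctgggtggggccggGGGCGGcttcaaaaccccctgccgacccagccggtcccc
FST: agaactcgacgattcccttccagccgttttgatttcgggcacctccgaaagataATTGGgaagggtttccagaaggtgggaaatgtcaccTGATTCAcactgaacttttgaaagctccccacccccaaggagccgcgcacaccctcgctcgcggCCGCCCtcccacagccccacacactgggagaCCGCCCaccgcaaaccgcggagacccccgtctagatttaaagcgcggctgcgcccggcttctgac
The GDF15 sequence held TATAAA starting 29 bases before the start site, 2 matches to GGGCGG and a match to CCAAT on the opposite strand. The TGFB1 sequence held 6 matches to GGGCGG and none to the other 4 motifs, and 76.8% of its bases were G or C, against 58.4% for GDF15 and a median of 58% over all windows. RefSeq windows were found for 8 of the 10 genes (not for INHBE or BMP2), with 11 windows in all since BMP4 and TGFB3 have several. TATAAA was in 4 of the 11, those of GDF15, TGFB2, INHBA and TGFB3, against 10.7% of 35116 windows of all genes, and GGGCGG in 6 of the 11, against 42.6%. TGATGNAA was in 0 of the 11, against 3.14% of all windows, and CCAAT in 3, against 32%. TGANTCA was in 1, that of FST, against 6.57%, and there it read TGATTCA. A window without a match says only that these letters were not in those bases.

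Counts are given in the order of the replicate numbers 1 to 3. GDF15 was counted 612, 550 and 531 times in the controls and 13220, 14717 and 12683 times with ILL. The groups were far apart, and the lowest ILL library held many times the counts of the highest control. In CPM this was 15.5 ± 0.403 (SD, n = 3) in controls and 389.3 ± 33.98 (SD, n = 3) with ILL. The log2 fold change was 4.65 ± 0.07 (SE, edgeR, adjusted p = 3.97e-24), a 25.1-fold increase with a 95% interval of 4.51 to 4.80 on the log2 scale. By log2 fold change GDF15 ranked 34 among the tested genes, counted from the largest increase. By mean FPKM it moved from place 5273 among the 19470 genes in controls to place 299 with ILL.

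Of the activin β subunit genes, INHBE and INHBA rose and INHBB did not pass the test. INHBE, which encodes the βE subunit and is best known as a product of the liver, had the second largest increase. It lies on chromosome 12 from 57452323 to 57459280 on the plus strand. INHBE was counted 38, 31 and 37 times in the controls and 464, 526 and 440 times with ILL. Every ILL library was thus more than 10 times above every control library. The mean was 0.969 ± 0.0824 CPM (SD, n = 3) in controls and 13.7 ± 1.41 CPM (SD, n = 3) with ILL, a log2 fold change of 3.82 ± 0.17 (SE, edgeR, adjusted p = 7.77e-16), or 14.1-fold. It ranked 68 among the tested genes by log2 fold change.

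INHBA encodes the βA subunit, of which activin A is a dimer, and lies on chromosome 7 from 41667168 to 41705834 on the minus strand. Its counts were 309, 327 and 331 in the controls and 566, 434 and 395 with ILL. All ILL libraries lay above all controls, with ILL replicate 1 the highest, and the coefficient of variation was 18.9% with ILL against 8.95% in controls. The log2 fold change was 0.59 ± 0.13 (SE, edgeR, adjusted p = 0.000364), which stayed under the cutoff for a DEG. The antisense gene INHBA-AS1 overlaps INHBA, and since the strand setting of the counting is not given in the sources used here, reads of the pair cannot be told apart.

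INHBB encodes the βB subunit and lies on chromosome 2 from 120346143 to 120351808. It was counted 170, 180 and 197 times in controls and 147, 186 and 127 times with ILL. The groups overlapped, and ILL replicate 2 lay above control replicates 1 and 2. The log2 fold change was -0.19 (95% interval -0.59 to 0.22, edgeR adjusted p = 0.397), so a difference in either direction within this interval was not resolved.

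FST, whose product binds activins and keeps them from their receptors, lies on chromosome 5 from 53480409 to 53487134. It had 570, 708 and 637 counts in the controls and 438, 413 and 498 counts with ILL. All ILL libraries lay below all controls. FST fell by 0.45 ± 0.12 on the log2 scale (SE, edgeR, adjusted p = 0.00151), from 17.6 ± 2.76 to 12.9 ± 1.18 CPM (SD, n = 3 per group). Per gene length, the ratio of FST to the summed FPKM of INHBA, INHBB and INHBE was 1.43, 1.74 and 1.45 in controls and 0.385, 0.340 and 0.499 with ILL. Without INHBE in the sum, the ratio was 1.67, 1.96 and 1.67 in controls and 1.01, 0.991 and 1.51 with ILL, so the larger part of the shift came with INHBE. FSTL3, another gene whose product binds activins, is not part of these ratios. It was at 72.3 ± 0.956 FPKM in controls and 78.5 ± 2.27 FPKM with ILL (SD, n = 3 per group), above FST in both groups. These are ratios of transcripts, and no protein was measured for these genes.

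Among the BMP genes, BMP2 rose and BMP4 fell. BMP2 lies on chromosome 20 from 6767664 to 6780280 and had 163, 153 and 124 counts in the controls and 611, 557 and 559 counts with ILL. The groups did not overlap, and the ILL libraries lay close together. The mean was 4.02 ± 0.451 CPM (SD, n = 3) in controls and 16.5 ± 0.796 CPM (SD, n = 3) with ILL, a log2 fold change of 2.04 ± 0.13 (SE, edgeR, adjusted p = 5.49e-13), or 4.11-fold. By log2 fold change it ranked 463 among the tested genes.

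BMP4, on chromosome 14 from 53949736 to 53958761 on the minus strand, is closely related to BMP2 in sequence and uses the same receptors. Its counts were 2149, 1828 and 1800 in the controls and 1277, 1442 and 1396 with ILL. Every ILL library lay below every control. BMP4 fell by 0.42 ± 0.07 on the log2 scale (SE, edgeR, adjusted p = 7.86e-06), from 52.8 ± 2.31 to 39.4 ± 2.74 CPM (SD, n = 3 per group). The ratio of BMP2 to BMP4 in FPKM was 0.0532, 0.0587 and 0.0483 in controls and 0.335, 0.271 and 0.281 with ILL, so BMP4 remained the more abundant transcript in every library.

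Of the TGF-β isoform genes, TGFB3 rose, and TGFB1 and TGFB2 did not pass the test. TGFB1 lies on chromosome 19 from 41301587 to 41353911 on the minus strand and had 2599, 2540 and 2600 counts in the controls and 2406, 2329 and 2271 counts with ILL. After scaling the groups overlapped, at 66.9 to 73.5 CPM in controls and 64.9 to 68.7 CPM with ILL. The log2 fold change was -0.08 (95% interval -0.20 to 0.05, edgeR adjusted p = 0.246). With scaling by library size only it was -0.15 and passed the test (adjusted p = 0.0311, within a range of 0.0238 to 0.491 over its 15 alternatives). HNRNPUL1, CCDC97 and TMEM91 overlap TGFB1 on the opposite strand. HNRNPUL1, the most abundant of these, fell by 0.71 on the log2 scale, and CCDC97 rose by a log2 fold change of 0.55. TMEM91 had few counts, at 0.584 CPM in controls and 1.20 CPM with ILL, and rose by 1.04 ± 0.46 (SE, edgeR, adjusted p = 0.0464).

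TGFB2, on chromosome 1 from 218346235 to 218444619, had 1075, 758 and 762 counts in the controls and 963, 861 and 853 counts with ILL. Control replicate 1 lay above all other libraries in counts, and the groups overlapped. The log2 fold change was 0.12 (95% interval -0.08 to 0.32, edgeR adjusted p = 0.273), and it passed only without control replicate 1, at 0.25 (adjusted p = 0.0275, within a range of 0.0275 to 0.737 over its 15 alternatives).

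TGFB3, on chromosome 14 from 75958099 to 75982991, was the TGF-β isoform with the fewest counts, at 97, 108 and 65 in the controls and 137, 140 and 128 with ILL. The ILL libraries lay close together and above all controls, with control replicate 3 the lowest. The log2 fold change was 0.65 ± 0.24 (SE, edgeR, adjusted p = 0.0185). The call did not hold without control replicate 3, at 0.48 (adjusted p = 0.0862), or without ILL replicate 2, at 0.62 (adjusted p = 0.0545), within a range of 0.00855 to 0.0862 over its 13 alternatives. IFT43 and TGFB3-AS1 overlap TGFB3 on the opposite strand.

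**Figure D1:**
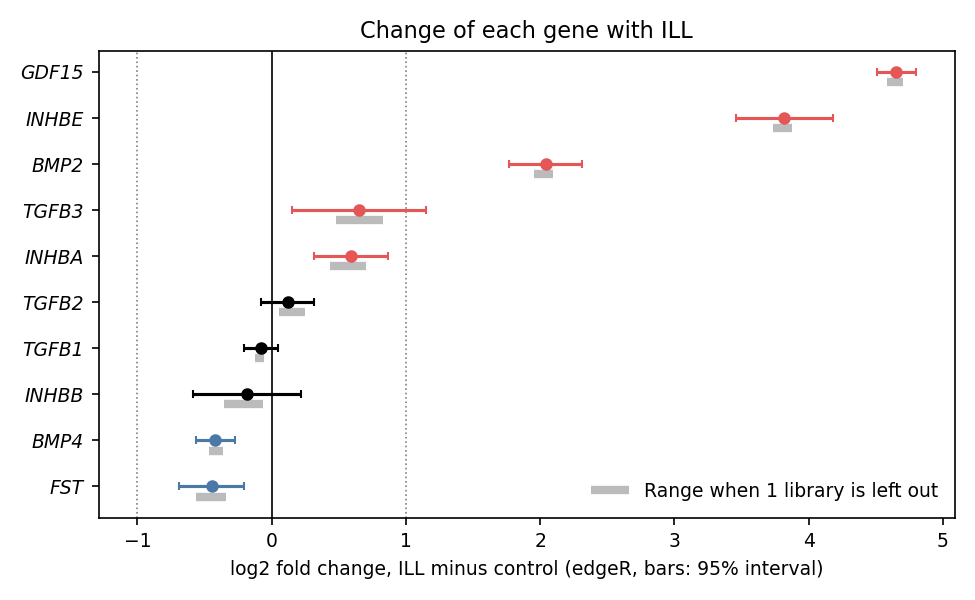
log2 fold change of the 10 genes (ILL minus control, edgeR) with its 95% interval, in red for genes that rose, in blue for genes that fell and in black for genes that did not pass an adjusted p-value of 0.05. Grey bars give the range when single libraries were left out in turn, and dotted lines mark the fold change cutoff, which GDF15, INHBE and BMP2 exceed.

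Levels of different genes were compared in FPKM, which divides counts by gene length. In controls TGFB1 was the highest, at 34.5 ± 1.57 FPKM (SD, n = 3), followed by BMP4 at 21.7 ± 1.05 FPKM and GDF15 at 9.22 ± 0.282 FPKM. FST and TGFB2 came next and overlapped, at 4.82 ± 0.747 and 4.06 ± 0.625 FPKM. INHBB followed at 1.60 ± 0.185 FPKM, then BMP2 and INHBA, which overlapped at 1.16 ± 0.135 and 1.12 ± 0.0964 FPKM. TGFB3, at 0.648 ± 0.164 FPKM, and INHBE, at 0.403 ± 0.0333 FPKM, were the lowest.

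With ILL the order changed at the top, in the middle and at the bottom. GDF15 was the highest at 221 ± 18.3 FPKM (SD, n = 3), above TGFB1 at 31.2 ± 0.978 FPKM and BMP4 at 15.5 ± 0.985 FPKM. INHBE followed at 5.44 ± 0.532 FPKM. BMP2 and TGFB2 overlapped at 4.56 ± 0.243 and 4.21 ± 0.291 FPKM, and FST was next at 3.37 ± 0.311 FPKM. INHBA and INHBB overlapped at 1.61 ± 0.311 and 1.34 ± 0.269 FPKM, and TGFB3 was the lowest at 0.970 ± 0.0494 FPKM.

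Summed over the 9 ligand genes, the level was 74.5, 75.0 and 74.0 FPKM in the controls and 281.1, 307.6 and 268.5 FPKM with ILL. Without GDF15 the sum was 65.3 ± 0.329 FPKM (SD, n = 3) in controls and 64.8 ± 1.92 FPKM (SD, n = 3) with ILL, and the groups overlapped. The deposited FPKM are scaled to total counts without the TMM factors, which were 1.02 to 1.03 in controls and 0.970 to 0.982 with ILL. The overlap of these sums therefore applies to that scaling only. GDF15 was 12.4% ± 0.312 (SD, n = 3) of the ligand FPKM in controls and 77.3% ± 1.01 (SD, n = 3) with ILL. The share of TGFB1 went from 46.4% to 10.9% and that of BMP4 from 29.2% to 5.43%, while that of INHBE went from 0.542% to 1.90%. BMP2 was at 1.56% and 1.60%, since the sum itself was larger with ILL. These sums and shares are descriptions, and no test was made on them.

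**Figure D2:**
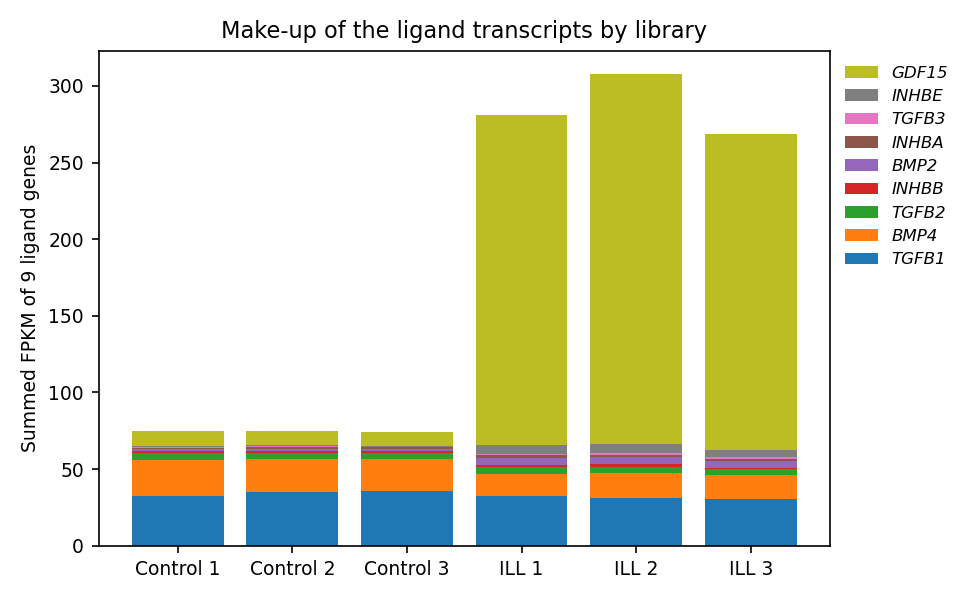
Stacked FPKM of the 9 ligand genes in each library, with the genes in colour and the total as the height of the bar. The GDF15 segment accounts for the taller ILL bars, while the other 8 genes together reach about the same height in all 6 libraries, between 62.6 and 66.3 FPKM. These FPKM are scaled to total counts without the TMM factors.

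The neighbourhood of the genes was also examined, a choice made after values had been seen. Within 100 kb of the 10 genes lay 28 other tested genes, of which 6 were DEGs higher and 4 DEGs lower with ILL, beside 12.5% and 11.4% of all tested genes. INHBE has DDIT3, which encodes the stress transcription factor CHOP, at a distance of 57.3 kb and MARS1, which encodes a methionyl-tRNA synthetase, at 16.2 kb. Their log2 fold changes were 2.62 ± 0.10 (SE, edgeR, adjusted p = 7.84e-18) for DDIT3 and 1.27 for MARS1. GLI1, 0.9 kb beyond the end of INHBE, had a log2 fold change of 0.90, and INHBC, the next gene upstream at 1.5 kb and another β subunit gene, was near 0 in all libraries. PGPEP1, a peptidase gene, lies 4.8 kb before the GENCODE start of GDF15 and farther from the RefSeq start used for the sequence above. Its log2 fold change was 2.09 ± 0.07 (SE, edgeR, adjusted p = 4.07e-18), at 14.3 CPM in controls and 61.0 CPM with ILL. LSM4, a gene of RNA processing at 51.5 kb from GDF15, fell from 222.6 CPM to 111.0 CPM.

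Other ligand genes of the superfamily were mostly silent in these cells. Of 24 further ligand genes, 5 were tested, and 7 had no counts in any library. Among those tested, 1 was a DEG higher and 2 were DEGs lower with ILL, beside 12.5% and 11.4% of all tested genes. BMP6 was a DEG higher with ILL, at 53, 31 and 21 counts in controls and 132, 126 and 118 with ILL, a log2 fold change of 1.92 ± 0.31 (SE, edgeR, adjusted p = 7.28e-06). GDF11 fell by 2.19 and AMH, the anti-Müllerian hormone gene, fell by 1.26. BMP8B was just under the fold change cutoff at 0.99, which it passed without control replicate 2 or ILL replicate 2, so that 2 of these genes were then higher, and its reads can be shared with BMP8A. INHA, the inhibin α subunit gene, did not pass the test (log2 fold change -0.75, edgeR adjusted p = 0.176). The median log2 fold change of the 5 tested genes was -0.75.

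Of 20 receptor and co-receptor genes, 16 were tested and 1 was a DEG, beside 23.9% of all tested genes. By the adjusted p-value alone 7 rose and 2 fell, beside 73.1% in all, with a median log2 fold change of 0.27. The DEG was ACVRL1, the endothelial type I receptor ALK1, which had 10, 10 and 2 counts in controls and 25, 37 and 61 with ILL and is named although its mean over all 6 libraries was under 1 CPM. TGFBR2, the TGF-β type II receptor, was at 88.0 ± 4.11 CPM (SD, n = 3) in controls and 85.7 ± 2.42 CPM (SD, n = 3) with ILL and did not pass the test (log2 fold change -0.04, edgeR adjusted p = 0.554). TGFBR1, the type I receptor, had a log2 fold change of 0.26 (adjusted p = 0.0364 from the same edgeR test), which failed in 10 of its 15 alternatives. Of the activin receptors, ACVR1B rose by a log2 fold change of 0.58 and ACVR2A did not pass, at -0.19. Of the BMP receptors, BMPR2 rose by 0.54, from 98.7 ± 4.79 to 143.8 ± 2.79 CPM (SD, n = 3 per group), and BMPR1A did not pass, at 0.08. ACVR1, a type I receptor for BMPs, rose from 19.7 to 39.3 CPM, just under the cutoff for a DEG. It passed without control replicate 1 or 3 or ILL replicate 2 or 3, and ACVR2B passed without control replicate 2, so that 2 receptor genes were DEGs in those fits. GFRAL, the receptor of GDF15, had no counts in any of the 6 libraries, and RET, its partner, was at 0.372 CPM in controls and 0.450 CPM with ILL.

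Of the 8 SMAD genes, all were tested. Of these, 0 were DEGs higher and 1 was a DEG lower with ILL, beside 12.5% and 11.4% of all tested genes. SMAD6, an inhibitory SMAD of BMP signaling, fell by 1.38 ± 0.14 on the log2 scale (SE, edgeR, adjusted p = 5.26e-09), from 13.8 ± 1.37 to 5.28 ± 1.05 CPM (SD, n = 3 per group). SMAD7, the inhibitory SMAD of TGF-β signaling, did not pass the test at -0.17. Among the signal transducers, SMAD2 rose by a log2 fold change of 0.49, SMAD1 by 0.50 and SMAD3 by 0.20, while SMAD5 fell by 0.65. The call of SMAD3 was lost in 4 of its 15 alternatives, those with library size only and the limma fits (adjusted p up to 0.114). SMAD4, the shared partner, had a log2 fold change of 0.03 (adjusted p = 0.722 from the edgeR test), whose sign turned in 5 of its 15 alternatives.

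Of 15 genes from families that hold ligands in the matrix or process and release them, 13 were tested. Of these, 2 were DEGs higher and 3 were DEGs lower with ILL, beside 12.5% and 11.4% of all tested genes. By the adjusted p-value alone 10 rose and 3 fell, beside 36.2% and 36.9% of all tested genes. The median log2 fold change was 0.31. LTBP2, which belongs to the latent TGF-β binding protein family by name, had 405, 432 and 435 counts in controls and 43, 22 and 29 with ILL. It fell by 3.69 ± 0.21 (SE, edgeR, adjusted p = 3.95e-14), and what its product binds was not measured here. THBS1, which encodes thrombospondin 1, an activator of latent TGF-β, fell by 2.82, from 654.4 ± 5.85 to 92.6 ± 7.51 CPM (SD, n = 3 per group). LTBP1 rose by 1.59, from 4.96 ± 0.588 to 14.95 ± 1.27 CPM (SD, n = 3 per group). ITGB6, whose integrin releases TGF-β from its latent form in epithelium, rose by 1.05, and it lay under the fold change cutoff, at 0.98, without control replicate 2, which left 1 DEG higher in this list. NRROS, the third DEG lower, had few counts (45, 37 and 31 in controls and 21, 20 and 7 with ILL) and was not called without control replicate 1 or 2 or without ILL replicate 3. FURIN, which cuts the precursors of many of these ligands, rose by 0.13.

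Of 16 secreted antagonists and decoy receptors other than FST, 6 were tested. Among these, 1 was a DEG higher and 1 a DEG lower with ILL, beside 12.5% and 11.4% of all tested genes. BAMBI, a decoy receptor, was a DEG higher with ILL (log2 fold change 1.37 ± 0.17, SE, edgeR, adjusted p = 1.24e-07), from 4.51 ± 1.34 to 11.7 ± 0.983 CPM (SD, n = 3 per group). BMPER, which binds BMPs, fell by 2.01, from 18.1 ± 1.43 to 4.49 ± 0.516 CPM (SD, n = 3 per group). FSTL3, a relative of follistatin that also binds activins, was at 176.5 CPM in controls and 201.1 CPM with ILL and rose by a log2 fold change of 0.19. NOG, which encodes noggin, fell by 0.56. The median of the 6 was -0.07, and the count of DEGs higher was 2 in place of 1 without any single control library or without ILL replicate 2, where NBL1, which did not pass the filter with all libraries, was tested and called.

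**Figure D3:**
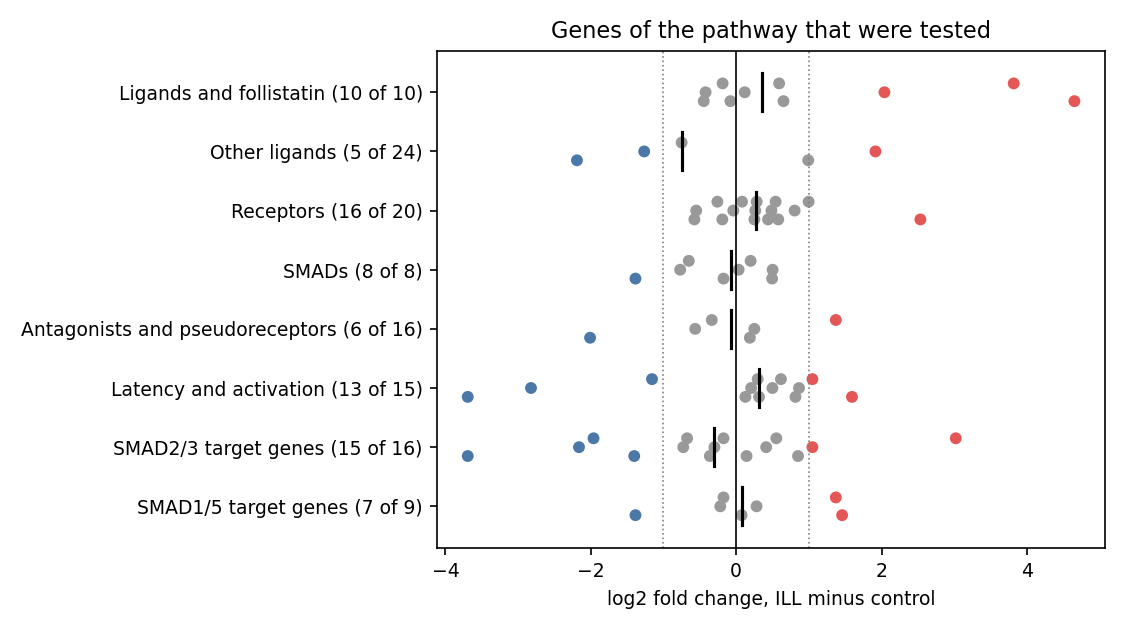
log2 fold change (ILL minus control) of each tested gene, by list, with the number tested of the number listed, DEGs higher in red, DEGs lower in blue, other genes in grey and the median as a black line. The medians lie between -0.75 and 0.35, and each list except the 10 genes themselves, the receptors and the SMADs holds DEGs on both sides.

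Of 16 genes known to respond to TGF-β or activin through SMAD2 and SMAD3, 15 were tested, 2 were DEGs higher and 4 DEGs lower with ILL, beside the same 12.5% and 11.4%, and the median log2 fold change was -0.30. PMEPA1, a feedback inhibitor of TGF-β signaling, fell by 1.96, from 699.6 ± 50.6 to 179.6 ± 8.85 CPM (SD, n = 3 per group). IL11, a cytokine gene, fell by 2.16 and TGFBI, an extracellular matrix gene, fell by 1.40, and the fourth DEG lower was LTBP2. In the other direction TAGLN, an actin-binding protein gene of smooth muscle, rose by 3.02, from 263.1 ± 17.5 to 2134 ± 58.0 CPM (SD, n = 3 per group). The second DEG higher was ITGB6, which did not reach the cutoff without control replicate 2, so that 1 remained. By the adjusted p-value alone 6 rose and 8 fell, beside 36.2% and 36.9% of all tested genes. Genes of this list, TAGLN among them, can also be controlled by other pathways.

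Of 9 genes known to respond to BMPs, 7 were tested. Among these, 2 were DEGs higher and 1 was a DEG lower, beside 12.5% and 11.4% of all tested genes. The median log2 fold change was 0.08. ID1, the classic target of BMP signaling, was at 440.4 ± 14.0 CPM (SD, n = 3) in controls and 463.9 ± 19.3 CPM (SD, n = 3) with ILL and did not pass the test (log2 fold change 0.08, edgeR adjusted p = 0.176). ID2 rose by 1.46, from 11.4 ± 1.16 to 31.3 ± 0.377 CPM (SD, n = 3 per group). The other DEGs were BAMBI and SMAD6, which belong to this list as well and moved in opposite directions.

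GDF15 and INHBE are both known targets of ATF4 and CHOP. Of 11 such regulators and marker genes of their activity, 10 were DEGs higher with ILL, beside 12.5% of all tested genes. The median log2 fold change was 2.88, and the list was chosen with its direction in these libraries known. ATF4 was at 274.7 ± 7.43 CPM (SD, n = 3) in controls and 919.4 ± 37.6 CPM (SD, n = 3) with ILL, DDIT3 at 6.15 ± 0.538 and 37.7 ± 0.581 CPM, and ATF3 at 2.46 ± 0.217 and 26.4 ± 3.56 CPM. CHAC1 and ASNS, targets of ATF4, had the largest increases, with log2 fold changes of 4.29 and 3.72. CDKN1A, which encodes a cell cycle inhibitor, rose by 2.88. The part of these regulators in the changes of GDF15 and INHBE was not tested.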

How the data were processed

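Total RNA of HCCC9810 cells was extracted with TRIzol, and mRNA libraries were sequenced, in 3 libraries per group. The authors deposited a table of raw counts by gene symbol and a second table of FPKM, each holding 1 column for every library. The submitters' processing notes name GRCh38 and DESeq2, while the aligner, the counting program and its strand setting are not given in the sources used here. With 1 length per gene, worked out from the library with the most counts of that gene, dividing each deposited count by that length and its library total gave back the deposited FPKM for 100% of 88055 nonzero values within 0.1%. Groups and replicate numbers came from sample titles.

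Counts were filtered with filterByExpr, which left 13066 of 19470 genes, normalized by TMM and compared between ILL and control in the quasi-likelihood test of edgeR (4.0.16, R 4.3.3) with Benjamini-Hochberg adjustment over all tested genes. CPM values use the TMM-adjusted library sizes. The biological coefficient of variation was 0.0717. The DEG cutoffs were those of the study's methods. Replicates of the same group differed beyond counting noise in all pairs (chi-square per degree of freedom 5.15 to 11.8). Alternatives were DESeq2 (1.42.0), limma on log2 of FPKM (3.58.1), other scalings and filters, the replicate number as a block, and each library left out in turn.

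The 10 genes and the lists were chosen with earlier results of these data known. Named genes are the 10, up to 3 DEGs per direction and list whose mean reached 1 CPM and whose groups did not overlap, and a fixed set of receptors, SMADs, targets and regulators, some of which are not reported here. Others, chosen after their values were seen, are BMP8B, INHA, INHBC, ACVRL1, ACVR1, ACVR2B, NBL1, NRROS, RET, SMAD1, SMAD5, FURIN, FSTL3, NOG, TGFBI, CDKN1A, the cell type markers and the genes near or overlapping the 10. Positions are from GENCODE release 29 and sequences from RefSeq (GRCh38.p14), where the TATA box, GC box and CCAAT box were added as motifs after values had been seen. Precision depends on the spread between libraries for all but genes with few counts. No library was left out of the results.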

Additional observations from a re-analysis of the deposited data

How the results depend on the processing

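GDF15, INHBE and BMP2 were the DEGs among the 10 genes under every alternative tried, and for 7 of the 10 genes neither the direction nor the outcome of the test changed in any of them. The exceptions were TGFB1, which passed at -0.15 with library size only, at -0.14 with limma on log2 of FPKM plus 1, with and without the filter, and at -0.15 with a pseudocount of 0.1, and TGFB2 and TGFB3 when single libraries were left out. Leaving out 1 library gave 0.0536 to 0.25 for TGFB2 and 0.48 to 0.83 for TGFB3. SMAD4, at 0.03, turned sign to -0.0354 with library size only, to -0.0261 in limma with a pseudocount of 1, with and without the filter, and to -0.0342 with a pseudocount of 0.1, and ranged from -0.0035 to 0.0712 with 1 library left out. The cause of these changes was not tested, and library size only moved the median of all genes to -0.07, and limma with a pseudocount of 0.1 to -0.10.

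By the adjusted p-value alone, 4726 genes were higher and 4821 lower, with 5 and 2 of the 10 genes, 2 further ligands higher, 7 and 2 receptors, 3 and 2 SMADs, 3 and 3 antagonists, 10 latency genes higher, 6 and 8 SMAD2/3 targets and 1 stress regulator lower. In limma with a pseudocount of 1 there were 668 DEGs higher and 923 lower, and 680 and 929 without the filter; in both fits 0 further ligands were higher and 1 lower, 0 receptors higher, 0 SMADs lower, 1 SMAD2/3 target higher and 0 SMAD1/5 targets lower, and 0 latency genes were higher, with 1 lower in the filtered fit. With a pseudocount of 0.1 there were 909 DEGs higher, 0 further ligands and 0 receptors higher, 1 latency gene higher and 1 lower, and 1 SMAD2/3 target higher. The count of 0 receptors in limma stands beside 1 in edgeR and 2 in DESeq2. The filtered limma fits held only genes with a mean of at least 1 FPKM, with 10 receptors and 2 further ligands tested. ACVRL1, BMP6 and LTBP2 were not tested in them. In the limma fit without the filter, ACVRL1 and BMP6 were tested and lay under the fold change cutoff, at 0.27 and 0.62. Further ligands higher were 2 with RLE factors or at least 10 counts in every library, receptors higher 2 with RLE factors or DESeq2, and antagonists higher 3 in DESeq2 or without a filter. With library size only, 1 latency gene and 1 SMAD2/3 target were higher. Leaving out 1 library gave 1 to 2 DEGs higher for further ligands, receptors, antagonists, latency genes and SMAD2/3 targets. The summed ligand FPKM, as log2 of ILL over control, was 1.94, then 1.99 as TPM and 1.88 to 1.98 with 1 library left out, and FST over activin β subunits was -1.92, then -2.09 to -1.80.

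Same-numbered libraries did not deviate together over the tested genes (correlations 0.001, -0.015 and -0.043). These values cannot show whether same-numbered libraries were handled together, and the labels do not say. With the replicate number as a block, 1627 genes were DEGs higher and 1484 lower, with 3 of the 10 genes higher and 0 lower. Depth limits ACVRL1, NRROS, INHBE in controls and genes near 0.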
